A study of Mus musculus with 6 samples.

Results

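Dlx1, Dlx2, Dlx5, Dlx6, Gsx2, Isl1, Ebf1, Meis2 and Foxp1 are transcription factors that act in the striatal lineage, and H3K4me3 peaks over these 9 genes were described here. They were chosen by name, as 9 of the 21911 protein-coding genes of the annotation, and all 9 were found in it. The peaks came from 6 lists, 1 per condition, made by ChIP-Seq for histone H3 trimethylated at lysine 4 in STHdh cells, which are mouse striatal progenitors (strain label C57BL/6) made to divide in culture. Every culture was kept for 24 h in medium without serum. Q7SST was the wild-type line, STHdhQ7, with vehicle, and Q111SST was the mutant line, STHdhQ111, which carries a longer run of glutamine codons knocked into Huntingtin, also with vehicle. The other 4 lists came from STHdhQ111 cells given cyproheptadine, loxapine, diacylglycerol kinase inhibitor II (DKI) or meclizine, each at 10 uM, and all 4 have Q111SST as their control. Each genotype was 1 cell line, so genotype and line cannot be told apart. With 1 list per condition there was no spread between replicates, and every difference given here describes these lists, with no test.

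The lateral ganglionic eminence, a ventral part of the embryonic forebrain, gives rise to the projection neurons of the striatum. Gsx2 patterns its progenitors, the Dlx homeodomain factors act next as cells leave the cycle and become GABAergic, and Isl1, Ebf1, Meis2 and Foxp1 act in the young projection neurons. H3K4me3 gathers around transcription starts, above all where the DNA is rich in CpG dinucleotides, and a developmental gene can carry it while it is little transcribed. A peak is therefore no measure of the RNA.

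Genes with a peak at most 1 kb away from any annotated transcript start of theirs are called marked. The strength of a gene is the percentile of its strongest such peak, the share of all peaks in the same list with a score at or below it, so that a value near 100 is among the strongest peaks. The lists held 30758 to 45564 peaks, 227418 in all. The depth behind each list is unknown, the scale of the deposited score is not stated, and scores were therefore ranked only within a list. The 95% Wilson intervals of the percentiles reached at most 0.559 points to a side and cover counting error only.

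3 promoters show how far sequence and mark ran together. Dlx2 was marked over its start in all 6 lists, Gsx2 had no peak over its start in any list, and Isl1 had no peak within 1 kb of any start. The lines give the 250 bases before the RefSeq start of each, 5′ to 3′ on the strand of the gene, on GRCm38.p6, with each CpG dinucleotide in capitals. Dlx2 is at chr2:71546755-71547004 on the minus strand, Gsx2 at chr5:75075351-75075600 on the plus strand and Isl1 at chr13:116309689-116309938 on the minus strand.
Dlx2 promoter: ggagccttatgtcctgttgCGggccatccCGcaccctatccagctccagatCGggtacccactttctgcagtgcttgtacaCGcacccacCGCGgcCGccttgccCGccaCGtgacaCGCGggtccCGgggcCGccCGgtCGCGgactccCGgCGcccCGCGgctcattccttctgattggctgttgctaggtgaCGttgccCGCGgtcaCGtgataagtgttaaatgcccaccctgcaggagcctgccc
Gsx2 promoter: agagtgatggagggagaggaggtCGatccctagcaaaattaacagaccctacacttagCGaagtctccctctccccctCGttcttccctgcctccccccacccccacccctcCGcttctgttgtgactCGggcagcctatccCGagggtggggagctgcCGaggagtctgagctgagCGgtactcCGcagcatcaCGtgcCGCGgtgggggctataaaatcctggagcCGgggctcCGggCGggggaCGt
Isl1 promoter: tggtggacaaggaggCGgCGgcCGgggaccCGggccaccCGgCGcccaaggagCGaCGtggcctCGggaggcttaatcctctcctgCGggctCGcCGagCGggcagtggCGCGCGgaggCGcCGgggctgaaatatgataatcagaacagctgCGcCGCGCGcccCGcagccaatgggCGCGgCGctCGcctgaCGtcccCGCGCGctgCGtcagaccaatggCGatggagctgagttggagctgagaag

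All 3 windows are GC-rich. The Dlx2 window holds 24 CpG dinucleotides, a GC share of 66.4% and a CpG observed over expected ratio of 0.890, where 1 is the number that the base composition alone would give. The Gsx2 window has 16, 63.6% and 0.634 for the same measures. The Isl1 window, which has the most, holds 33, 71.2% and 1.05. Isl1 is thus a CpG-dense promoter without the mark. Of 7163 coding genes with a CpG-rich window, defined as a ratio of at least 0.6 and a GC share of at least 50%, 86.6% were marked in all 6 lists and 6.46% in none. The median ratio was 0.752 over coding genes marked in all 6 lists and 0.186 over those marked in none. Among the other members in the RefSeq table the ratio was 0.764 for Dlx1, 0.989 and 0.853 at the starts of Ebf1, and 0.497 for Meis2. Foxp1 has 3 such windows, with ratios of 1.12, 0.520 and 0.240. Peaks lay over them in 2, 6 and 0 lists, and within 1 kb of them in 6, 6 and 2. Peaks lay over the Dlx1 window in 3 lists, the Ebf1 windows in 6 and 5, and the Meis2 window in 5.

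Letters of common promoter motifs were looked for on both strands. TATAAA is in the Gsx2 window and in 12.0% of the windows of 16517 coding genes. CCAAT is in the Dlx2 and Isl1 windows and in 36.0% of all. TAATTA, a core that many homeodomain proteins bind, is in none of the 3 windows printed and in 4.40% of all. A match is a description of letters, not a bound site.

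**Figure D1:**
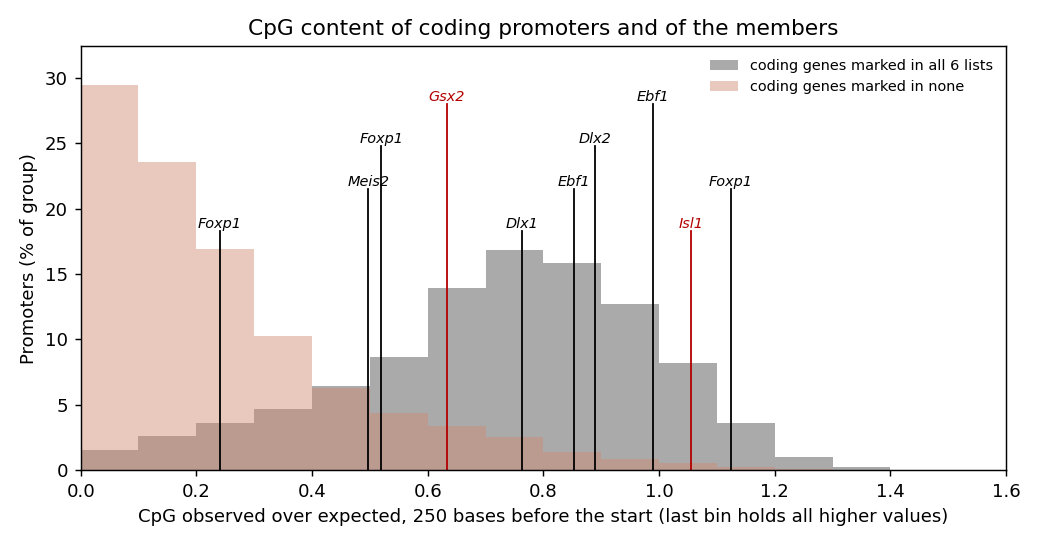
The horizontal axis is the CpG observed over expected ratio in the 250 bases before a RefSeq start, and the vertical axis is the percentage of coding promoters of each group, grey for genes marked in all 6 lists and light red for genes marked in none. Vertical lines stand for the members' windows (several for Ebf1 and Foxp1, with heights that carry no meaning), and Isl1 at 1.05, in red, lies within the grey range although it had no promoter peak.

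Of the members, 7 or 8 were marked in each list. In Q7SST 8 of the 9 were marked, beside 59.9% of all coding genes. The count was 7 of 9 in each of the other lists, beside 58.4% in Q111SST, 58.6% with meclizine, 55.8% with DKI, 58.1% with loxapine and 55.4% with cyproheptadine. The same 7 genes, all but Gsx2 and Isl1, were marked in all 6 lists, as were 53.5% of coding genes, while 37% were marked in none. With only peaks scoring at least 47, the count was 5 of 9 in Q7SST, 6 in Q111SST, 7 with meclizine, 3 with DKI, 5 with loxapine and 5 with cyproheptadine. Beside these, 53.6%, 52.1%, 53.4%, 46.6%, 51.8% and 46.6% of coding genes were still marked.

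The marked members were mostly of middling strength among all peaks, but most lay below the median of marked coding genes. The median percentile over the 9, with unmarked genes as 0, was 52.1 in Q7SST and 56.6 in Q111SST, and 59.7 with meclizine, 50.3 with DKI, 61.1 with loxapine and 58.1 with cyproheptadine. Over all coding genes it was 58.2, 59.3, 55.8, 41.4, 56.2 and 46.0 in the same order. Coding genes that were marked had medians between 76.6 and 83.1, and only 1 or 2 members per list lay above that median. Dlx1 was above it in every list, joined by Ebf1 in Q7SST and DKI, by Foxp1 in Q111SST, loxapine and meclizine, and by none with cyproheptadine.

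**Figure D2:**
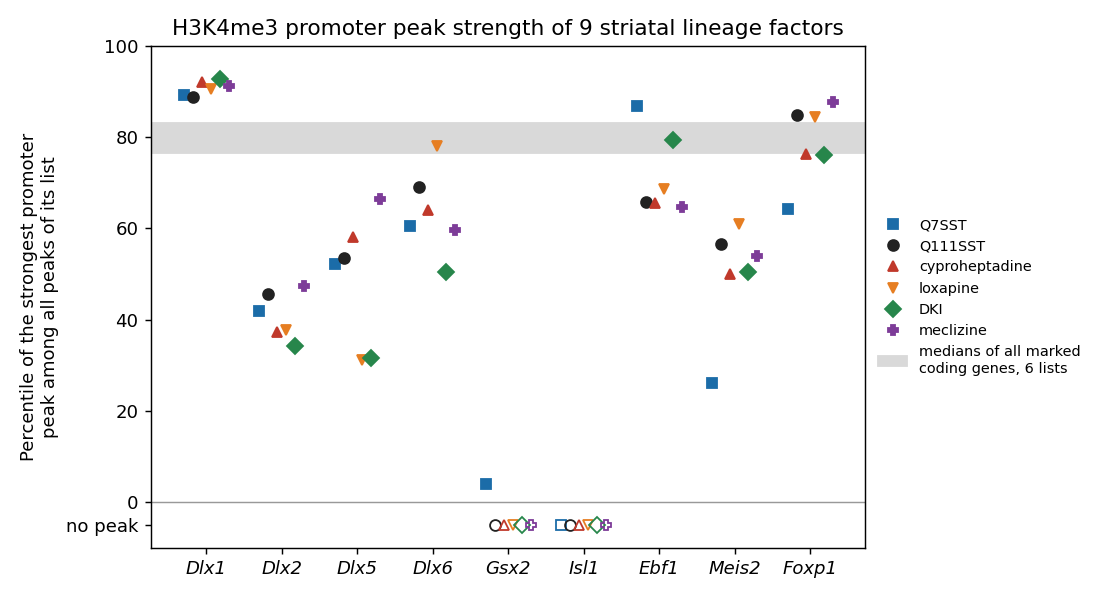
Each point is 1 gene in 1 list, and the vertical axis is the percentile of its strongest promoter peak among all peaks of that list. Open symbols at the bottom stand for genes with no peak within 1 kb of a start, and the grey band spans the medians of all marked coding genes. Dlx1 stays between 88.7 and 92.7, Gsx2 has 1 point at 3.90, and Isl1 has none.

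Dlx1 and Dlx2 lie tail to tail on chromosome 2 with 9.426 kb between them, and Dlx6 and Dlx5 do so on chromosome 6 with 9.236 kb between them. Both pairs are transcribed together in the ventral forebrain. All 4 genes were marked in every list, but the members of a pair differed in strength.

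Dlx1 (chr2:71528113-71533981, plus strand) had the strongest promoter peak of the 4 in all 6 lists. Its percentile was 89.3 in Q7SST and 88.7 in Q111SST, and 91.2 with meclizine, 92.7 with DKI, 90.5 with loxapine and 92.1 with cyproheptadine. These values span 3.95 points, and 17.5 when ranked among promoter peaks alone. Its peak, 1.26 to 1.72 kb wide, lay not over the 5′ end but over inner starts, exons and introns, from 0.992 to 2.81 kb into the gene.

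Dlx2 (chr2:71543408-71546754, minus strand) had a wider and weaker promoter peak. Its percentile was 41.8 in Q7SST and 45.7 in Q111SST, and 47.5 with meclizine, 34.1 with DKI, 37.7 with loxapine and 37.2 with cyproheptadine, so each value was below that of Dlx1 in the same list by over 40 points. The peak was 1855 to 2461 bp wide and covered the printed promoter in every list. A separate region at the 3′ end of Dlx2 was also present in all 6 lists. It stood above the promoter peak of Dlx2 in Q7SST, at the percentile 67.9, in Q111SST, at 52.7, and with loxapine, at 57.0. With meclizine, DKI and cyproheptadine, at 30.9, 28.9 and 29.7, it stood below.

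The space between the 2 genes divided the lists. Q7SST had a peak of 898 bp at 9.17 to 10.1 kb from the 5′ end of Dlx1, at the percentile 75.8, which lay over a start of Dlx1as, the antisense transcript of Dlx1. In the 5 mutant lists no Dlx1as start was marked, the nearest peak being 1087 to 1436 bp away. They held instead a region at 10.9 to 12.7 kb, at the percentiles 46.7 in Q111SST, 50.5 with meclizine, 53.9 with DKI, 44.2 with loxapine and 29.7 with cyproheptadine. Among coding genes, 2.78% were marked in Q7SST and in no mutant list.

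**Figure D3:**
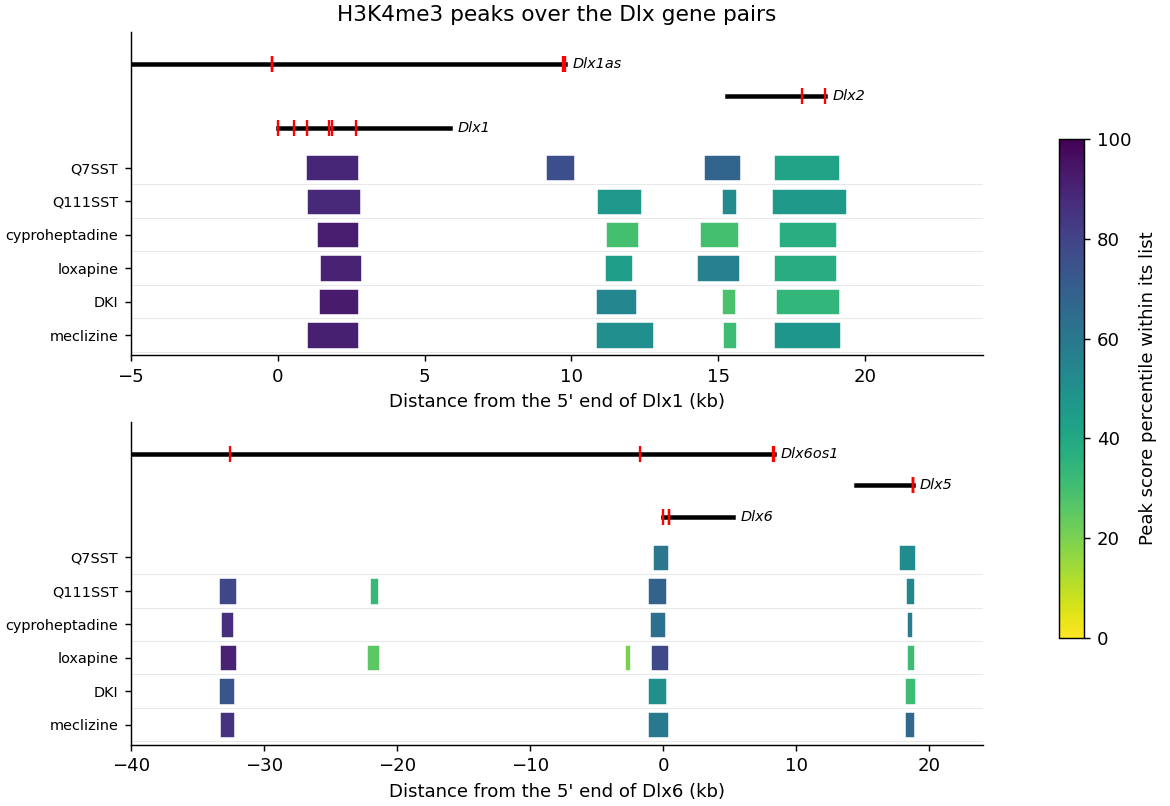
Peaks of the 6 lists (bars, coloured by score percentile within the list) over Dlx1 and Dlx2 (top) and Dlx6 and Dlx5 (bottom), against the distance in kb from the 5′ end of the first gene. Black lines are the genes and antisense transcripts, cut at the panel edge, and red ticks are annotated starts. The Q7SST peak near 9.17 kb sits apart from the mutant peaks that begin near 10.9 kb, and the peak of Dlx6os1 near -33 kb is missing from Q7SST.

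Dlx6 (chr6:6863334-6868568, plus strand) was marked over its start in all 6 lists. Its percentile was 60.5 in Q7SST and 69.1 in Q111SST, and 59.7 with meclizine, 50.3 with DKI, 78.1 with loxapine and 64.1 with cyproheptadine. Loxapine was the highest and DKI the lowest, 27.8 points apart. With lists of equal size the range was 18.2 points, from 49.4 with meclizine to 67.6 with loxapine. The peak covered 0.958 to 1.31 kb of the gene and its flank, and was narrowest in Q7SST and widest with meclizine, so the order of widths was not that of the percentiles.

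Dlx5 (chr6:6877805-6882085, minus strand) had a range of 35.4 points over the lists as deposited. Its percentile was 52.1 in Q7SST and 53.5 in Q111SST, and 66.4 with meclizine, 31.6 with DKI, 31.1 with loxapine and 58.1 with cyproheptadine. Loxapine and DKI were thus over 20 points below their control and meclizine 12.9 points above it. The size depended on the length of the lists: with each cut to its strongest 30758 peaks, the difference was -7.40 points with DKI and 18.9 with meclizine, and the loxapine peak was lost. The peak was widest in Q7SST at 1025 bp, followed by 606 bp with DKI, 557 bp with meclizine, 420 bp with loxapine, 407 bp in Q111SST and 266 bp with cyproheptadine. The cyproheptadine peak stopped 112 bp short of the nearest start. Width and strength did not run together here, since the narrowest peak had the second highest percentile.

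Among 11712 other coding genes marked in all 6 lists, the 3 whose percentiles lay nearest to those of Dlx5, by the summed absolute difference over the 6 lists, were Carmil3 (21.7 points), Pcbp3 (32.6) and Nt5e (33.5). Carmil3 had 35.1 with loxapine, 31.6 with DKI and 61.3 with meclizine. It was the nearest of many genes compared, so the likeness is a description only.

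Dlx6os1, an antisense transcript that starts on both sides of Dlx6 and is also known as Evf2, had the reverse pattern to Dlx1as. It was marked in all 5 mutant lists, at the percentiles 78.8 in Q111SST, 85.6 with meclizine, 73.4 with DKI, 90.3 with loxapine and 86.3 with cyproheptadine, and not in Q7SST, where the nearest peak was 1047 bp from a start. These values were above those of both Dlx6 and Dlx5 in the same list. The peak lay about 33 kb upstream of Dlx6, at chr6:6830052-6831154 in Q111SST. Of the coding genes, 0.936% were marked in all 5 mutant lists and not in Q7SST. Because a start of Dlx6os1 also lay within 1 kb of the Dlx6 peak in the mutant lists, that peak cannot be given to Dlx6 alone.

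Gsx2 (chr5:75075601-75077893, plus strand) was marked in Q7SST alone, and only just: the mark was lost with lists of equal size and when a peak had to lie over a start. Its peak, at chr5:75076393-75076589, was 197 bp wide, scored 16 where the lowest score of the list was 10, and stood at the percentile 3.90. It lay inside the intron, 791 bp from the nearest start, which puts it just within the limit of 1 kb. In the 5 mutant lists the nearest peak to a Gsx2 start was 31272 to 31676 bp away. The peak is printed 5′ to 3′ on the plus strand of GRCm38 with CpG in capitals, to be set beside the Gsx2 promoter above.
Gsx2 intronic peak: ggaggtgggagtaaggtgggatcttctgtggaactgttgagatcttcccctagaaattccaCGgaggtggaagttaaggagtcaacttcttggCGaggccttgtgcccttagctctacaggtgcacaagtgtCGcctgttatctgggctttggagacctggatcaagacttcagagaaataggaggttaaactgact

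It holds 3 CpG dinucleotides, a GC share of 49.7% and an observed over expected ratio of 0.262, well below the 0.634 of the promoter. The peak thus lay on a part of Gsx2 poorer in CpG, and the CpG-rich promoter had none.

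Isl1 (chr13:116298281-116309689, minus strand), the factor of striatonigral and cholinergic neurons, was marked in no list. It has 5 annotated starts in 3 groups more than 1 kb apart, and all 3 groups were bare. The nearest peak to any of them was 4749 to 5210 bp away. That peak lay at the 3′ end, within chr13:116297689-116298602, across the end of the last exon and the sequence past it, and was present in all 6 lists. Its percentile was 21.3 in Q7SST and 52.7 in Q111SST, and 55.2 with meclizine, 51.3 with DKI, 56.2 with loxapine and 15.3 with cyproheptadine. It reached into the gene in 4 lists and stopped short of it in Q7SST and DKI. The covered width of Isl1 was therefore 0.322 kb or less in every list, and the ratios of these widths (3.85 times narrower with loxapine and 8.76 times with meclizine than in Q111SST) rest on the last bases of 1 peak.

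Ebf1, Meis2 and Foxp1 are long genes, of 390.775, 202.776 and 597.384 kb, and they held most of the marked sequence. The 9 genes together had 49.0 kb under peaks in Q7SST, 55.9 in Q111SST, 51.4 with meclizine, 39.4 with DKI, 56.1 with loxapine and 40.3 with cyproheptadine. Of this, 86.6% to 90.5% lay in the 3 long genes. Peaks overlapping in any list were merged into 61168 regions, and coding genes longer than 100 kb held 17629, a region being counted for each gene it lay over. Over those long genes, 29.3% of regions were present in all 6 lists, 14.7% in Q7SST alone and 7.2% in all 5 mutant lists but not Q7SST.

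Meis2 (chr2:115863064-116065839, minus strand), a TALE homeodomain factor, was the member with the most peaks in Q7SST alone. Its covered width was 13.4 kb in Q7SST, against 6.14 kb in Q111SST, 4.90 with meclizine, 5.06 with DKI, 5.20 with loxapine and 4.55 with cyproheptadine. Q7SST had 11 peaks over the gene and the mutant lists 2 or 3. Of its 11 regions, 9 were in Q7SST alone and the other 2 in all 6 lists, so no region was particular to the mutant lists. The 9 were mostly weak, with percentiles of 1.61 to 66.6, a median of 19.5, and 5 of them below 20. With lists of equal size 4 of 6 regions were in Q7SST alone, beside 15.4% over all long genes, each region counted once. The covered width was then 6.92 kb in Q7SST against 6.14 kb in Q111SST. With scores of at least 47 the order turned round, at 2.41 against 4.99 kb. There 2 of 3 regions were in Q7SST alone, beside 14.7%. In the full lists only 12 coding genes, or 0.0548%, held as many as 9 regions in Q7SST alone, all 12 among the 2490 longer than 100 kb.

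At the 5′ end of Meis2 the mutant lists were the stronger. The promoter peak stood at the percentile 26.1 in Q7SST and 56.6 in Q111SST, and 53.9 with meclizine, 50.3 with DKI, 61.1 with loxapine and 50.1 with cyproheptadine, so Q7SST was the lowest. It was 1706 bp wide in Q7SST and 5525 bp in Q111SST, where it ran on over a further pair of starts 3.309 kb into the gene. Those starts were marked in the 5 mutant lists only, and with the compounds by a separate peak. In Q7SST, starts at 6.997 and 16.159 kb were marked instead, weakly, at the percentiles 14.1 and 1.61. The 5′ peak also lay within 1 kb of starts of 2700033N17Rik and G630016G05Rik, and cannot be given to Meis2 alone. The 200 kb on either side of Meis2 held 10 regions in all, 6 and 4, of which 1 and 2 were in Q7SST alone.

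Foxp1 (chr6:98925338-99522721, minus strand), a forkhead factor enriched in striatal projection neurons, had the most peaks of the 9. It held 16 in Q7SST and 25 in Q111SST, and 25 with meclizine, 20 with DKI, 28 with loxapine and 19 with cyproheptadine. Covered width was 21.9, 29.8, 27.8, 20.1, 31.2 and 21.7 kb in the same order, so Q7SST, cyproheptadine and DKI were low and Q111SST, loxapine and meclizine high. Cyproheptadine and DKI were also the 2 lists with the fewest peaks overall.

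The 22 annotated starts of Foxp1 form 13 groups more than 1 kb apart, of which 4 were marked in all 6 lists and 6 in none. The strongest was not at the 5′ end but 426.5 kb into the gene. Its percentile was 64.3 in Q7SST and 84.8 in Q111SST, and 87.7 with meclizine, 76.1 with DKI, 84.4 with loxapine and 76.2 with cyproheptadine. A pair of start groups 86.325 and 87.376 kb into the gene was marked in the 5 mutant lists and not in Q7SST, both by the same peak. The percentile of that peak was 11.8 in Q111SST, 34.3 with meclizine, 34.1 with DKI, 49.9 with loxapine and 42.5 with cyproheptadine. The locus is shared with Gm20696, an overlapping annotated coding gene.

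Of 32 regions over Foxp1, 10 were in all 6 lists, 8 in all 5 mutant lists but not Q7SST, and 2 in Q7SST alone. As many as 8 mutant regions were found in 4 coding genes (0.0183%), all 4 among the 2490 longer than 100 kb. Such regions numbered 7 with lists of equal size and 4 with scores of at least 47. The strongest peak over the whole gene in each mutant list was one of these 8. It lay in an intron, 8.4 kb from the nearest annotated start, within chr6:99274971-99276154. Its percentile was 97.6 in Q111SST, 98.7 with meclizine, 99.0 with DKI, 97.9 with loxapine and 93.4 with cyproheptadine, above each promoter peak of every member in the same list, and Q7SST had no peak there. The 300 bases at its centre, chr6:99275360-99275659 on GRCm38, are printed 5′ to 3′ on the minus strand, the strand of Foxp1, with CpG in capitals.
Foxp1 intronic region: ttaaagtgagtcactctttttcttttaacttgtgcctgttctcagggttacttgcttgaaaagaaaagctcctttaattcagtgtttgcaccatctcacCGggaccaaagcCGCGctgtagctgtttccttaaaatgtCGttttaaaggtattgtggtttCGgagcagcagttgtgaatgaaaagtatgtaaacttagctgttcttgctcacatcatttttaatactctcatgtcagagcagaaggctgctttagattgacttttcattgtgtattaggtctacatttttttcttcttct

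That window holds 5 CpG dinucleotides, a GC share of 38% and an observed over expected ratio of 0.462. It is poorer in both than any of the 3 promoters printed above, although its peak ranked far higher.

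**Figure D4:**
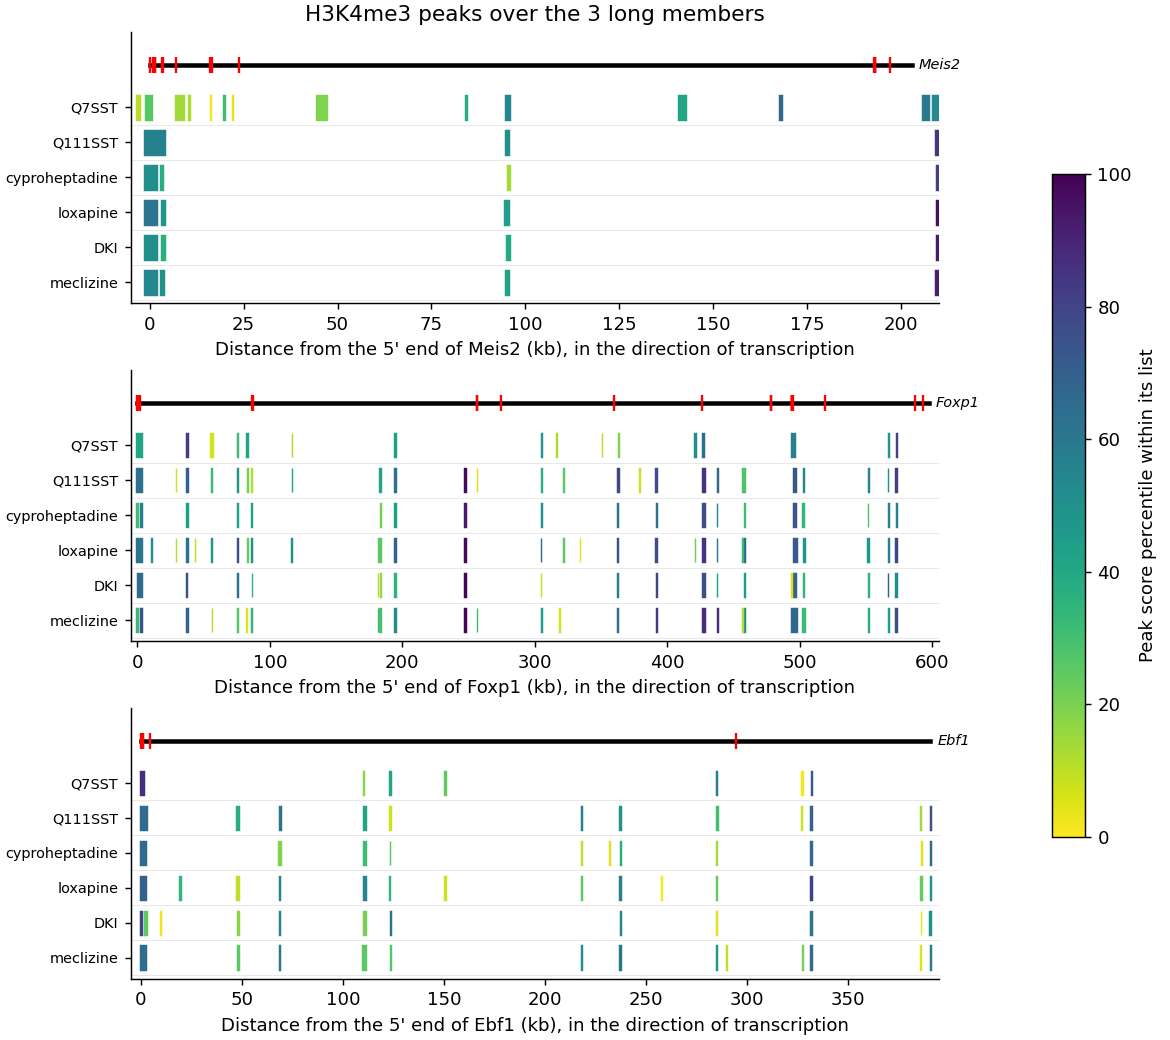
Peaks of the 6 lists (bars, coloured by score percentile within the list, with a thin outline) over Meis2, Foxp1 and Ebf1, against the distance in kb from the 5′ end in the direction of transcription. The black line is the gene and red ticks are annotated starts. Over Meis2 the Q7SST row holds 11 peaks and the others 2 or 3, and over Foxp1 the dark peak about 247 kb from the 5′ end is in the 5 mutant rows only.

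Ebf1 (chr11:44617317-45008091, plus strand), a helix-loop-helix factor of striatonigral neurons, differed between the lines in the opposite sense to Meis2. The percentile of its promoter peak was 86.9 in Q7SST and 65.9 in Q111SST, and 64.7 with meclizine, 79.3 with DKI, 68.7 with loxapine and 65.5 with cyproheptadine, so Q7SST was the highest and DKI came next. The peak was 2348 bp wide in Q7SST and 3212 to 3435 bp in the mutant lists, except DKI, in which it was split and the stronger piece was 1250 bp. A start of Gm37695 lay within 1 kb of it in every list.

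Further into Ebf1 the mutant lists held more. Regions more than 1 kb from a start numbered 6 in Q7SST and 11 in Q111SST. They numbered 12 with meclizine, 10 with DKI, 13 with loxapine and 10 with cyproheptadine. Over the whole gene, promoter included, there were 7 peaks in Q7SST and 12 in Q111SST, and 13 with meclizine, 12 with DKI, 14 with loxapine and 11 with cyproheptadine. Covered width was 7.31, 13.7, 12.7, 8.95, 14.4 and 8.93 kb in the same order. Of its 18 regions, 5 were in all 6 lists, 4 in the 5 mutant lists but not Q7SST, and none in Q7SST alone. With lists of equal size, 2 of 15 regions were in all 6 lists, 4 in the mutant lists alone and 1 in Q7SST alone. As many as 4 such mutant regions were found in 38 coding genes, or 0.173%, all 38 among the 2490 longer than 100 kb. With scores of at least 47 Ebf1 held 9 regions, 0 of them in the mutant lists alone, beside 3.93% over all long genes. Only 1 of the 18 regions lay within 1 kb of an annotated start of Ebf1, and 2 of its 3 start groups were marked in no list.

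**Figure D5:**
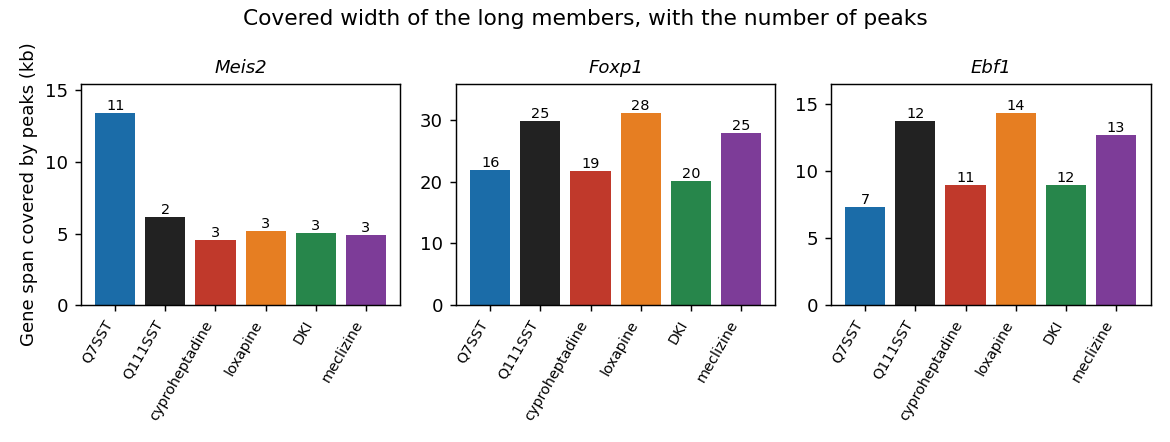
Bars give the width of Meis2, Foxp1 and Ebf1 under peaks, in kb on axes that start at 0, for each of the 6 lists, and the number above a bar is its count of peaks. Meis2 is highest in Q7SST at 13.4 kb, whereas Ebf1 is lowest there at 7.31 kb.

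Between the lines, 3 of the 7 members marked in both Q7SST and Q111SST differed by at least 10 percentile points. Dlx2 was a further one with starts widened to 5 kb, at 15.2 points higher in Q7SST. Ebf1 was 21.03 points higher in Q7SST, as 8.72% of 12335 coding genes were by 10 points or more. The difference, Q7SST minus Q111SST, was -30.6 points for Meis2 and -20.5 for Foxp1, and 12.8% of coding genes were lower by 10 or more. By covered width, Dlx5 (2.52 times) and Meis2 (2.19 times) were at least 1.5 times wider in Q7SST, beside 7.45% of coding genes and 14.2% of those longer than 100 kb. Ebf1 was 1.87 times wider in Q111SST, beside 11.5% and 20.1%. Under both shorter sets Ebf1 stayed past 1.5 times, at 1.93 with lists of equal size and 1.64 with scores of at least 47. Of the coding genes, 10.2% and 8.17% were narrower in Q7SST by 1.5 times there. Dlx5 has 1 peak per list, which a cut can only keep or drop, so its unchanged ratio is no test. Meis2 was 1.13 times wider in Q7SST with lists of equal size and 2.07 times wider in Q111SST with scores of at least 47. Foxp1 was 1.36 times wider in Q111SST in the full lists and 2.14 times with those scores. Ranked among promoter peaks alone, the percentile difference of Meis2 was -8.42. By that ranking Ebf1 stood at 65.8 in Q7SST and 19.9 in Q111SST, and Foxp1 at 22.3 and 55.4, both further apart than among all peaks.

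The compounds all share the Q111SST list as control, so their differences are not independent of each other. With cyproheptadine no member differed from Q111SST by 10 points, although 3.45% of coding genes were higher and 25.3% lower by as much. This did not hold with lists of equal size, where Dlx5 was 15.1 points higher, beside 10.1% of coding genes higher by 10 or more. Nor did it hold among promoter peaks alone, where the difference was 13.1 points for Dlx1 and -12.1 for Foxp1. With starts widened to 5 kb the difference was -15.5 for Dlx2 and -37.3 for Isl1, whose peak at the 3′ end then counted in these 2 lists. The covered width of Dlx5 and of Ebf1 was 1.53 times lower with cyproheptadine, beside 24.6% of coding genes lower by 1.5 times and 49.1% of those longer than 100 kb. The Ebf1 value was 1.47 with lists of equal size and 1.61 with scores of at least 47. With loxapine, 1 of the 7 members passed 10 points, Dlx5, with a difference of -22.5 from Q111SST, beside 9.28% of coding genes lower and 7.01% higher by 10 or more. Among promoter peaks alone the Dlx5 difference was -6.18, and Dlx6 was 15.9 points higher. Lists of equal size left no Dlx5 peak, and there Dlx2 was the member past 10 points, at -20.95, beside 22.2% of coding genes lower. With meclizine 1 did too, Dlx5 again, but higher by 12.9 points, beside 4.12% higher and 9.92% lower. Lists of equal size brought Dlx6 to -10.01, beside 11.2% of coding genes lower by 10 or more and 6.49% higher. Among promoter peaks alone Dlx1 and Foxp1 were also past 10 points with meclizine, at 10.1 and 12.5. No member was 1.5 times wider with any compound than in Q111SST, beside 2.84% of coding genes with meclizine, 0.763% with DKI, 3.79% with loxapine and 0.961% with cyproheptadine. Isl1, by the few bases at its 3′ end given above, was the 1 member narrower by as much with loxapine and with meclizine in the full lists, beside 5.77% and 6.4% of coding genes, but not when whole peaks were counted.

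With DKI, 4 members passed 10 points. The difference from Q111SST was -22.0 points for Dlx5, -18.8 for Dlx6 and -11.6 for Dlx2, and 38.3% of coding genes were lower by 10 or more, so 3 of 7 members is near that background. Ebf1 was 13.5 points higher, as 3.53% of coding genes were by 10 or more. Its covered width was 1.53 times lower, beside 30.6% of coding genes and 62.3% of the long ones, 1.29 times lower with lists of equal size, and below 1.5 times, at 9.90 against 13.7 kb, when peaks within 1 kb were merged. DKI had the shortest list. With all lists cut to its length none of the 3 was lower by 10 points, at -7.40 for Dlx5, -9.07 for Dlx6 and 5.45 for Dlx2. There Ebf1 was 24.2 points higher, beside 11.2% of coding genes higher by 10 or more and 21.2% lower. Among promoter peaks alone none of the 3 was lower by 10 points either, and Dlx1 was 17.5 points higher. The median difference from Q111SST over the 7 members with DKI was -8.71 points, beside -6.50 over all marked genes, and turned to 5.45 with lists of equal size.

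The calls against Q111SST changed again when only peaks scoring at least 47 were kept. In Q7SST Ebf1 was higher by 10 points or more, beside 20.5% of coding genes, and Foxp1 lower, beside 17.1%. Ebf1, Meis2 and Foxp1 were at least 1.5 times narrower in Q7SST, beside 8.17%, and Dlx5 wider, beside 5.78%. With cyproheptadine the difference was -15.4 points for Dlx6 and -21.4 for Foxp1, beside 43.9% of coding genes lower by 10 or more. Dlx5, Ebf1 and Foxp1 were narrower by 1.53, 1.61 and 2.01 times, beside 20% of coding genes. With loxapine Dlx6 was 20.9 points higher and Meis2 12.7, beside 20.3% of coding genes, and Meis2 was 1.74 times narrower, beside 5.31%. With DKI the difference was -16.0 points for Foxp1, beside 46.8%, while Ebf1 was 30.5 points higher, beside 10.2%, and 1.73 times narrower, beside 23.2%. With meclizine Dlx5 was 37.9 points higher and Foxp1 10.1, beside 18.1%, and no member was narrower by 1.5 times. The Dlx5 peak of Q111SST scored 47, the cut itself, so it stood near the bottom of its shortened list, at the percentile 1.85. Only 3 to 6 members had a promoter peak in both lists at these scores.

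The paralogs of the members were mostly marked as well. Of 12 such genes, 12 were marked in Q7SST, 11 in Q111SST, 11 with meclizine, 9 with DKI, 10 with loxapine and 10 with cyproheptadine, and 9 in all 6 lists. Isl2 was marked throughout, at percentiles of 73.4 to 93.4, where Isl1 was not marked at all. Gsx1 was marked in every list but DKI, at 55.5 to 71.5, where Gsx2 had the single weak peak. Foxp3 ranked highest, between 95.5 and 99.3, but its peak also lay within 1 kb of a start of Ppp1r3f. Ebf4 was marked in Q7SST alone, at 35.9, and Dlx3 in Q7SST, Q111SST and meclizine, at 5.80 to 30.6. Dlx4, Ebf2, Ebf3, Meis1, Meis3, Foxp2 and Foxp4 were marked in all 6 lists.

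Of 16 other transcription factors of the ventral forebrain and striatum, 11 were marked in Q7SST and 10 in Q111SST, and 9 with meclizine, 8 with DKI, 9 with loxapine and 7 with cyproheptadine. Sp8, Sp9, Foxo1, Zfhx3, Mef2c, Pbx3 and Lhx6 were marked in all 6. Ikzf1, Rarb, Rxrg and Nkx2-1 were marked in none. Six3 was marked in Q7SST alone at the percentile 43.9, and so was Bcl11b, the factor of mature projection neurons also known as Ctip2, at 55.1. Zfp503 was marked in Q111SST, loxapine and meclizine, at 69.6, 54.0 and 79.9, and not in Q7SST. Lhx8 was marked in every list but cyproheptadine, and Vax1 in Q7SST and Q111SST.

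The label of striatal progenitor cells was set beside marker genes. Of 5 neural progenitor markers, 2 to 5 were marked per list. Nes stood at the percentile 90.8 in Q7SST and 42.5 in Q111SST. It stood at 37.6 with meclizine, 32.9 with DKI and 68.7 with loxapine, and was not marked with cyproheptadine. Sox2 was marked in the 5 mutant lists and not in Q7SST. Of 6 striatal projection neuron markers, 4 were marked in Q7SST and 1 or 2 in the other lists, and both dopamine receptor genes, Drd1 and Drd2, were bare in all 6. The mature neuronal genes Rbfox3 and Snap25 were bare too, and 2 of 4 pan-neuronal genes were marked in each list. Of 6 mesenchymal genes, 5 were marked in Q7SST and 6 in every other list, with median percentiles of 51.2 to 72.7. Of markers of other cell types, 1 or 2 of 3 astrocyte genes, at most 1 of 4 oligodendrocyte genes, at most 1 of 3 microglial genes and 1 of 3 endothelial genes were marked per list. The part of these in the members' marks was not tested.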

How the data were processed

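H3K4me3 ChIP-Seq libraries were made from MNase-digested, crosslinked STHdh cells, sequenced single-end, and deposited as 6 peak lists, 1 per condition. The submitters' processing notes name Trimmomatic 0.36, Bowtie2, SAMtools 1.3, MACS2 and mm10. Each line deposited by the authors gave a peak's position and a whole-number score. Thresholds, any input control and the score's scale are not given in the sources used here, nor whether the triplicate treatments were pooled. Read depth is therefore not known, and short lists may come from fewer reads.

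Groups came from the sample labels. No peak ran past the end of any of the 21 GRCm38 chromosomes checked. Genes and starts were those of GENCODE mouse release M21. Covered width was summed over the gene and 1 kb around each start. Regions were overlapping peaks merged over the 6 lists. Promoter windows came from RefSeq (GRCm38.p6), which had 7 of the 9 members, and motifs were searched in the 250 bases before the start rather than in 300. Starts less than 1 kb apart formed a group. The members and all gene lists were chosen with earlier results of these data known. Named genes were the 9 members, those lists, the antisense transcripts Dlx1as and Dlx6os1, the 3 genes most like Dlx5, whose percentile had the widest range of the members in the lists as deposited, and genes whose starts or spans share a member's peak or locus. Gm29260, also listed, lies on another chromosome and was left out. Some genes of these lists are not reported here and were left out of the counts. Alternatives were promoter windows of 0 and 5 kb, scores of at least 47, merging of peaks within 1 kb, lists cut to their strongest 30758 peaks, and ranks among promoter peaks alone. Counts of regions with shorter lists were added after the data were seen. Scripts were tested on simulated data and used pysam 0.24.0, scipy 1.17.1, pandas 2.3.3 and numpy 2.4.6 under Python 3.11.15.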

Additional observations from a re-analysis of the deposited data

How the results depend on the processing

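With scores of at least 47, 5 members were marked in Q7SST, 6 in Q111SST, 7 with meclizine, 3 with DKI, 5 with loxapine and 5 with cyproheptadine, and 3 in all 6 lists beside 43.4% of coding genes. The members had 35.3 kb under peaks in Q111SST and 20.1 in Q7SST, 19.0 with DKI, 35.2 with loxapine and 16.9 with cyproheptadine. This threshold applied 1 score to all lists and carries any difference in scale between them. The median percentile over the members became 60.5 in Q7SST with starts widened to 5 kb, and 50.1 with cyproheptadine when peaks had to lie over a start. With lists of equal size it was 43.0 in Q111SST and 40.2 in Q7SST, 49.4 with meclizine, 42.3 with loxapine and 54.0 with cyproheptadine. Ranked among promoter peaks alone it was 12.9 in Q7SST, 12.8 in Q111SST, 17.8 with meclizine, 16.4 with DKI, 17.7 with loxapine and 17.9 with cyproheptadine. Of 9 differences of at least 10 points from Q111SST, 5 of the 8 that could be computed were still past 10 points in the same direction with lists of equal size, and 4 of 9 among promoter peaks alone. Dlx2 with DKI was reversed, at 5.45 points, with lists of equal size. The windows of 0 and 5 kb kept all 9, but 16 of those 18 values came out equal to the first, so they hardly test them. The 5 kb window added 3 others, Dlx2 at 15.2 points in Q7SST and at -15.5 with cyproheptadine, and Isl1 at -37.3 with cyproheptadine. With scores of at least 47, an alternative chosen after seeing the data for these differences, as both shorter sets were for the region counts, 4 of the 9 could be computed and all 4 were past 10 points in the same direction. For 1 of them, Dlx5 with meclizine, the Q111SST peak scored 47, the cut itself. No paired analysis was possible because a single list stood for each condition.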
